A study of Mus musculus with 14 samples.

Results

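The Hedgehog genes examined here were Hhat, Shh, Ihh, Dhh, Ptch1, Smo, Gli1, Gli2, Gli3 and Sufu, 10 of 21887 protein-coding mouse genes. A peak was assigned to a gene when it overlapped the annotated gene body, or 5 kb on either side of it, by 1 bp or more. Over 12 peak lists these genes held 26 of 39832 peaks. The genes were selected on peak counts in these lists, since Hhat held more peaks than its length predicts, so counts and ratios at Hhat and at the other genes are given as a description with no test. All libraries came from Sca1+CD45- cells of C57BL/6 mouse hearts, at an age of 6 to 8 weeks, and were made by chromatin immunoprecipitation and sequencing (ChIP-seq) with an antibody to BMI1 or to H2AK119ub. Mice of the Damage groups had a single intraperitoneal injection of paraquat, a herbicide that generates superoxide, at 20 mg/kg, and mice of the Homeostasis groups had the PBS vehicle alone. The interval between injection and cell isolation, and whether hearts were pooled, are not given in the labels, which also do not say whether replicates are separate animals. Damage BMI1, Damage H2AK119ub, Homeostasis BMI1 and Homeostasis H2AK119ub had 3 libraries each, and the 2 Input libraries were not analysed here. Damage lists held 19 to 68 peaks and Homeostasis lists 2000 to 13487. Sequencing depth is unknown, so a count of peaks cannot be scaled for it, and gene expression was not measured, so the labelled cell type could not be checked against its markers. Sca1 is a surface antigen of stromal and progenitor cells, and CD45 marks blood cells.

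Hedgehog proteins are secreted signals. Hhat, an acyltransferase of the secretory pathway, attaches palmitate to the ligands Shh, Ihh and Dhh, which need it for full activity. The ligands bind Ptch1, a receptor that otherwise holds the membrane protein Smo inactive. Active Smo releases the transcription factors Gli2 and Gli3 from Sufu, their inhibitor, and Gli1 and Ptch1 are classical targets that report pathway activity. In the heart the pathway is known for its part in septation and in growth of the coronary vessels. BMI1 belongs to Polycomb repressive complex 1, complexes of that family place the ubiquitin mark H2AK119ub on histone H2A, and in many cell types both are found over CpG-rich start sites of developmental genes, several Hedgehog genes among them.

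Since start sites are where Polycomb proteins are best known to act, the windows around the starts of these genes were examined first. RefSeq start windows on GRCm38.p6, running from 250 bp before to 50 bp after an annotated start, were matched for 8 of the 10 genes, all but Shh and Gli1. Each of the 8 genes had 1 such window, so any other start was not examined here. None of the 8 windows overlapped a peak in any Homeostasis list, and of 32851 such windows of all genes 28 did (0.0852%), so an empty window does not set these genes apart. The windows differed widely in CpG content. On either strand the dinucleotide CG, which reads the same on both, occurred at least once in 94.6% of all windows, with a median of 7 per window. Hhat had 6 CG dinucleotides, and 43.6% of all windows had fewer. Ptch1 had 47 (98.6% of windows had fewer), Gli3 39 (95.6%), Ihh 30 (88.3%), Gli2 28 (85.8%), Smo 17 (68.6%), and Dhh and Sufu 12 each (60.4%). The windows of Hhat, of the pair of Gli genes with peaks elsewhere in the gene, and of Ptch1, which had no peak at all, are shown 5′ to 3′ in the direction of the gene with each CG in capitals, because they span the range from CpG-poor to CpG-rich.
Hhat, chr1:192771170-192771469, minus strand: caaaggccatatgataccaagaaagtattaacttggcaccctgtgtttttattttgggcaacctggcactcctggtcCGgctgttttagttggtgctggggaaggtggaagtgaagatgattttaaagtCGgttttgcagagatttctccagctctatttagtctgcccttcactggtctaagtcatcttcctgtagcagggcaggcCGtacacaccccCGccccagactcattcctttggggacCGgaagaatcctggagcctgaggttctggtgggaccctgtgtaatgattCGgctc
Gli2, chr1:119053570-119053869, minus strand: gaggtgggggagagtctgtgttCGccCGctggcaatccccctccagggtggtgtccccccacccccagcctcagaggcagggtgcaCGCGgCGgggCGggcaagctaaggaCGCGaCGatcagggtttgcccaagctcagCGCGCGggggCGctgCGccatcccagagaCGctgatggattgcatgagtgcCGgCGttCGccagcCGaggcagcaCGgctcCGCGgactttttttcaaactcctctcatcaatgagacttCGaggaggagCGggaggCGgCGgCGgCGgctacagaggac
Gli3, chr13:15463473-15463772, plus strand: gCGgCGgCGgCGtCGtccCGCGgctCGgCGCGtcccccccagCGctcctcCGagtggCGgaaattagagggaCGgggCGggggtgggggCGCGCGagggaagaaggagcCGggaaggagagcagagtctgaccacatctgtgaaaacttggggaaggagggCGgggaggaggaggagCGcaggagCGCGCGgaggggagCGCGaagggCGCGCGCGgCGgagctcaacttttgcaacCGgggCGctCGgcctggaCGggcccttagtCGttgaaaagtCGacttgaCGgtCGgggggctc
Ptch1, chr13:63565686-63565985, minus strand: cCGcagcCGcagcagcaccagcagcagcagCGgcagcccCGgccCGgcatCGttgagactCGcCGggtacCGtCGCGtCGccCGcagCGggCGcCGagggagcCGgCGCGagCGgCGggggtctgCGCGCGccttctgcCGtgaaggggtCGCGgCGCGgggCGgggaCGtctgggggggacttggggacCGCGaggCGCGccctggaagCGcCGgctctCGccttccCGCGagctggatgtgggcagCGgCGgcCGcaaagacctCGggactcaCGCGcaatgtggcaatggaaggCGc
The nearest Homeostasis peak lay 42.4 kb from the Hhat window, 56.7 kb from that of Gli2, 131 kb from that of Ptch1 and 4.27 kb from that of Gli3. Hhat, the gene with the most peaks, had the fewest CG of the 4 windows, though its 6 were near the median of 7 over all windows. No Hhat peak was close to its window. The 4 windows were picked for display, and a relation of CG content to peaks was not tested.

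Hhat stood out by recurrence. It held 0 peaks in each of the 6 Damage lists, against 3, 3 and 3 in the Homeostasis BMI1 lists and 3, 3 and 3 in the Homeostasis H2AK119ub lists. The gene covers 258 kb (chromosome 1, 192512825 to 192771219 on GRCm38, minus strand). Of 21887 protein-coding genes, 6 (0.0274%) had 3 or more peaks in each of the 6 Homeostasis lists, and Hhat was the shortest of them. The others were Ppargc1a (662 kb), Inpp4b (792 kb), Gpc6 (1055 kb), Sgcz (1144 kb) and Rbfox1 (1528 kb). Hhat was also the 1 gene with exactly 3 in every list. These counts chose the gene and are not a test of it.

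**Figure D1:**
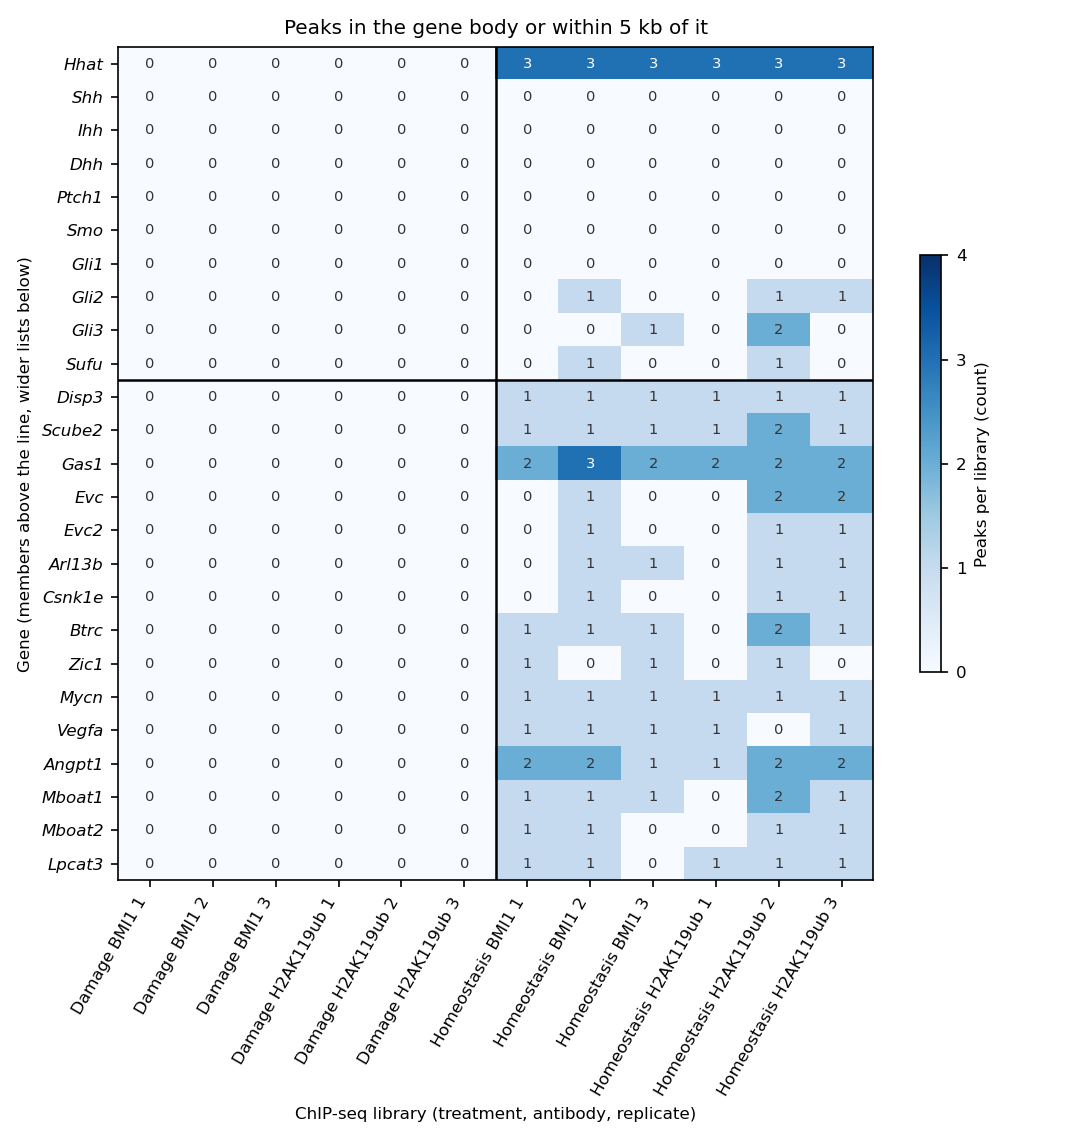
Number of peaks in each of 12 ChIP-seq libraries (columns, Damage left and Homeostasis right of the vertical line) in the body of each gene or within 5 kb of it (rows; the 10 Hedgehog genes above the horizontal line, 15 genes of the wider lists below). Hhat shows 3 peaks in all 6 Homeostasis libraries, 6 of the Hedgehog genes show none in any library, and every Damage cell is 0.

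The 3 peaks of the 6 lists fell on the same 3 sites, all within the gene body. Measured from the annotated start, their centres were 42.5 kb, 55.2 kb and 105 kb downstream, at 16.5%, 21.4% and 40.6% of the gene. The site nearest the start spanned 127 bp over the 6 lists (192728609 to 192728735), the middle site 211 bp (192715915 to 192716125) and the far site 188 bp (192666167 to 192666354). The neighbouring sites were 12.5 kb and 49.6 kb apart. At each site all 15 pairs of lists overlapped, the 9 pairs of a BMI1 with an H2AK119ub list included. Peak centres spread over 26.0 bp at the site nearest the start, 102 bp at the middle site and 80.0 bp at the far site. At the middle site the peaks of replicate 1 of both antibodies lay toward the end of the gene and those of the other 4 lists toward its start. Exons and introns were not distinguished, because the annotation used gives gene boundaries and starts only. No other annotated gene overlapped a site, and the closest annotated small RNA was 16.8 kb away. Genes of tRNA and 5S ribosomal RNA, on which 832 peaks of the 12 lists lay, were 3725 kb or more from each site.

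**Figure D2:**
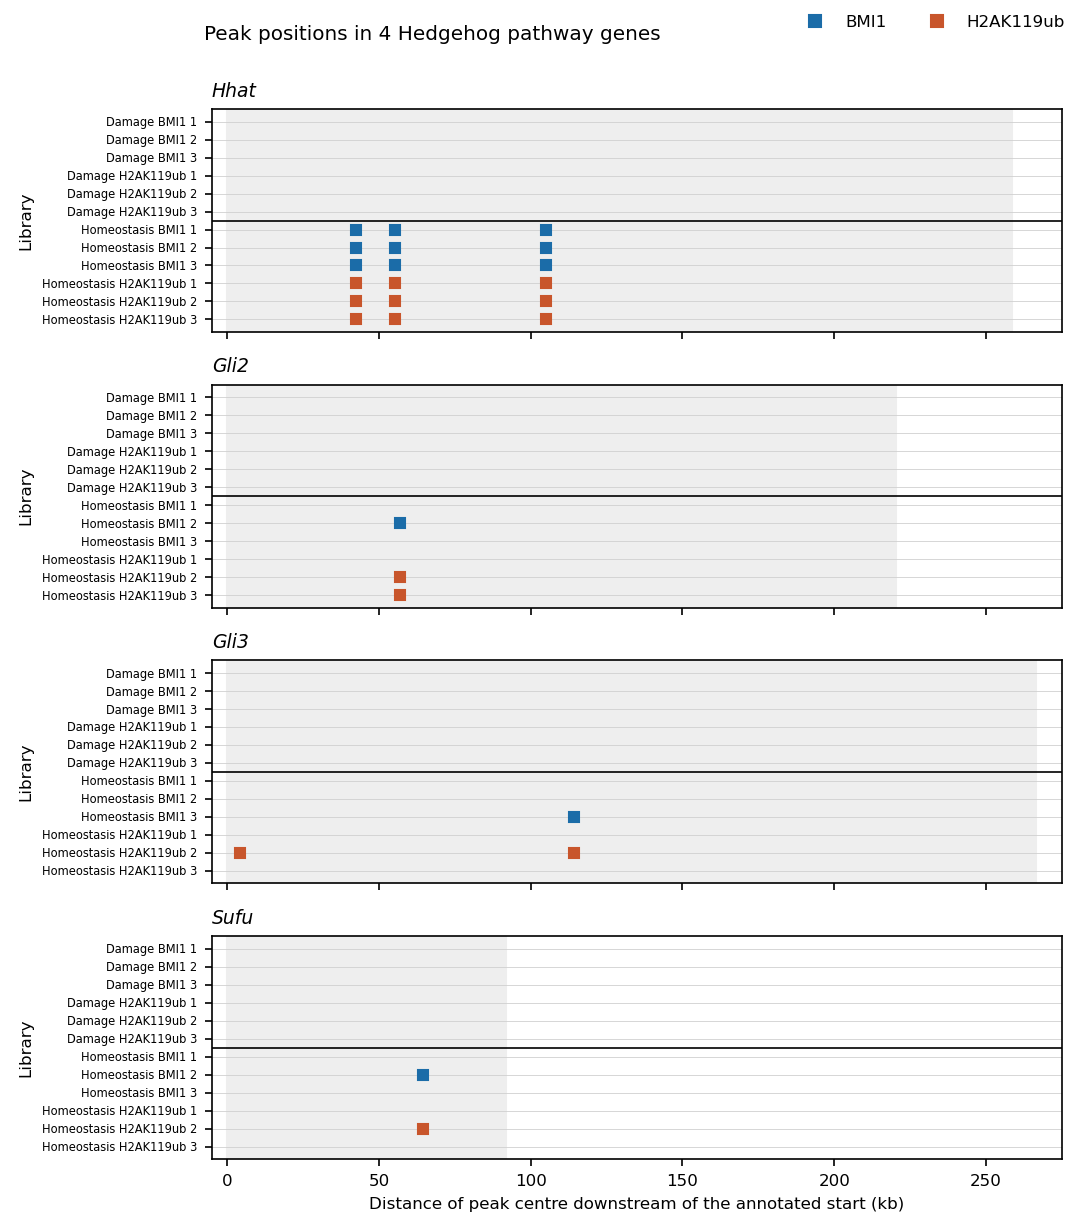
Distance of each peak centre downstream of the annotated start (kb) in Hhat, Gli2, Gli3 and Sufu, with a row for each of the 12 libraries, Damage above the line and Homeostasis below; the grey band has the length of the gene. Peaks of Hhat line up at 42.5, 55.2 and 105 kb in all 6 Homeostasis libraries, while the other genes have isolated peaks in 2 or 3 libraries.

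Merging overlapping peaks gave 17229 sites in the Homeostasis lists, of which 1242 (7.21%) were in all 6. The shortest list, Homeostasis H2AK119ub replicate 1, held 2000 peaks, which limits how many sites can be in all 6. In that list 62.5% of peaks lay on such sites, and in the longest, Homeostasis H2AK119ub replicate 2, 9.34% did. Of the 8 sites at the Hedgehog genes, 3 were in all 6 lists, all in Hhat. When each peak centre had to lie within 50 bp of the next, 1 Hhat site was in all 6. At least 1 site of all 6 lists was present in 469 protein-coding genes. Hhat, Ppargc1a, Inpp4b and Sgcz were the 4 genes with 3. The width of a peak was not itself used in the selection, but width and recurrence both moved with place in the list, as given below. Most deposited peaks were 101 bp wide, and 4.11% of all Homeostasis peaks were wider. Of the 18 Hhat peaks 8 were wider (44.4%, up to 145 bp), against 0 of the 8 peaks at the other Hedgehog genes. Those 8 peaks are not matched to the Hhat peaks, being on sites of 1 or 2 lists and 38.8% to 87.0% from the top of their lists. Among further pathway genes with sites in all 6 lists, described below, Gas1 also had wider peaks on such sites (up to 165 bp). Disp3, Scube2 and Mycn did not. Each of the 8 wider Hhat peaks had a deposited name marked as merged that ended in 2, in place of 1 for the other Hhat peaks. Width moved with place in the list, since 12.5% to 25.6% of the first 10% of each list were wider and 0% of the last 10%, and its relation to recurrence was not tested.

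The lists are not in genome order, and what ordered them is not given in the sources used here. In each Homeostasis list the first 10% of peaks lay on sites of all 6 lists more often than the last 10% did. In Homeostasis H2AK119ub replicate 2 the shares were 67.0% and 0%, and in Homeostasis H2AK119ub replicate 1, where they were closest, 57.0% and 43.7%. Over the whole of that list the share was 62.5%, above that of its first 10%, so its top held no excess of such sites. The far Hhat site stood in the first 12.1% of every list, at 6.51%, 3.54% and 12.1% from the top in the BMI1 lists and at 9.55%, 0.830% and 2.66% in the H2AK119ub lists. The middle site stood at 14.1% to 81.6% and the site nearest the start at 11.98% to 63.6%, both farthest from the top in Homeostasis H2AK119ub replicate 1, the shortest list.

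**Figure D3:**
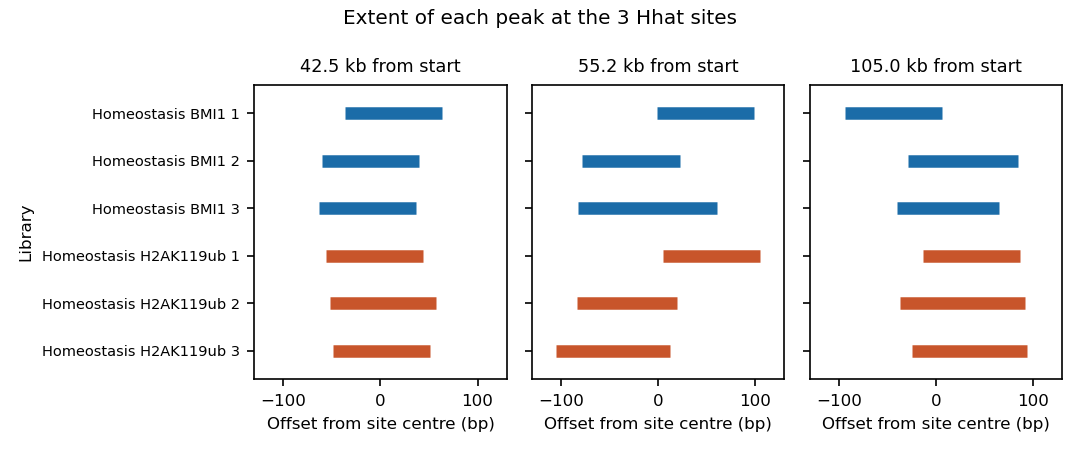
Extent of the peak of each Homeostasis library at the 3 Hhat sites, as the offset from the centre of the site (bp) in the direction of the gene, BMI1 libraries in blue above H2AK119ub libraries in orange. At the middle site the peaks of replicate 1 of both antibodies lie right of the others, toward the end of the gene, and at the far site the peak of Homeostasis BMI1 replicate 1 lies left of the others.

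Gene length was then taken into account. If the peaks of a list were spread evenly over chromosome 1, the Hhat window would hold 0.462, 0.712 and 0.414 peaks in the Homeostasis BMI1 lists and 0.188, 1.37 and 0.764 in the H2AK119ub lists. Observed over expected peaks, summed over lists, were 5.67 for BMI1 and 3.88 for H2AK119ub. Because the count was 3 in every list, the ratio of a single list depended only on how many of its peaks were on chromosome 1, and lay between 2.19 in Homeostasis H2AK119ub replicate 2, the longest list, and 15.9 in Homeostasis H2AK119ub replicate 1. Without replicate 2 the H2AK119ub ratio was 6.30. Over both antibodies it was 4.60. In the longest of 10 length classes of protein-coding genes (2189 genes of 109 kb or more) the median ratio was 0.530 and the 90th percentile 2.36. A ratio of at least 4.60 was reached by 15 genes, Hhat included.

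**Figure D4:**
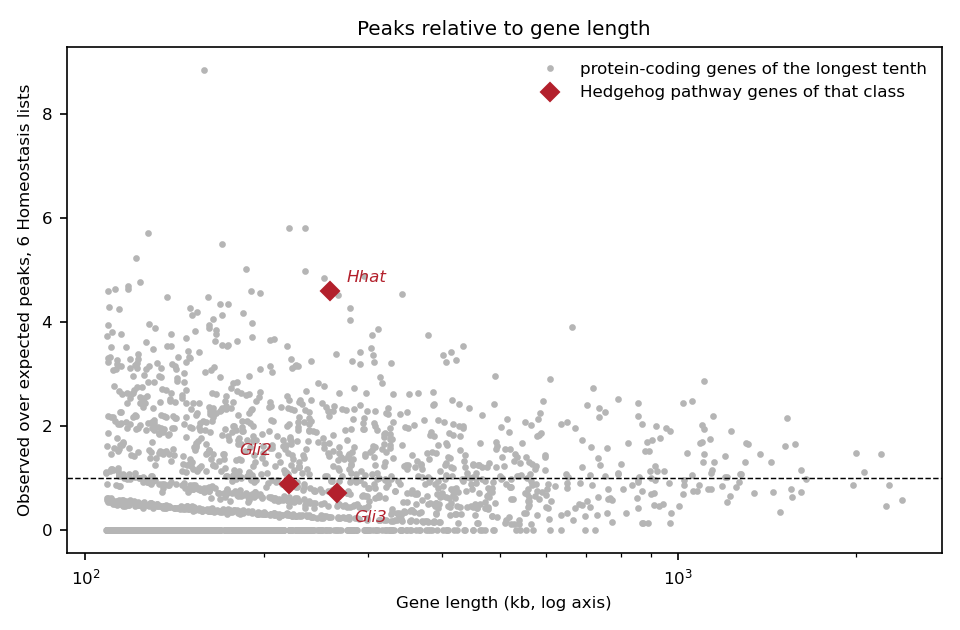
Observed over expected peaks in the 6 Homeostasis lists (vertical axis) against gene length (kb, log axis) for the 2189 protein-coding genes of the longest of 10 length classes, with Hhat, Gli2 and Gli3 as red diamonds; the dashed line marks a ratio of 1. Hhat lies at 4.60, above most genes of its length, and Gli2 (0.894) and Gli3 (0.723) lie just under the line.

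The ligand genes held no peak. Shh, Ihh and Dhh had 0 peaks in each of the 12 lists. They are short, at 10.3 kb, 6.36 kb and 16.9 kb, and even spacing gave each of them 0.240 to 0.371 peaks over the 6 Homeostasis lists together, so counts of 0 are near what their length predicts. The nearest Homeostasis site to Shh was 59.8 kb away (chromosome 5, 28526950 to 28527059) and was found in all 6 Homeostasis lists. It lay in 9530036O11Rik, a long non-coding RNA gene whose boundary overlaps that of Shh. The nearest to Ihh, at 26.5 kb in Cfap65, was in 1 list and the nearest to Dhh, at 262 kb, in 3 lists. These distances are far outside the 5 kb window, and no peak counted at any Hedgehog gene lay in the flanks, so the counts are the same for the gene body alone. With flanks of 50 kb, which reach the site near Ihh, 5 of the 10 genes had a Homeostasis peak.

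The receptor genes were also empty. Ptch1 (65.1 kb, 1.13 peaks expected over the 6 Homeostasis lists) and Smo (25.9 kb, 0.609 expected) had 0 peaks in every list, with the nearest Homeostasis peaks 123 kb and 132 kb away in 1 list each. Gli1, the target gene, had none (11.7 kb, 0.330 expected), and its nearest site was 78.5 kb away in R3hdm2, in 4 lists. Together the 6 genes without a peak were expected to hold 2.99 peaks over the 6 Homeostasis lists.

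The long transcription factor genes had fewer peaks than Hhat, on sites of 1 or 2 lists. Gli2 and Gli3 are in the longest length class, where the median ratio was 0.530 and 33.8% of genes had no peak. Their ratios, given below, were above that median. Gli2 (220 kb) held 0 peaks in all Damage lists, against 0, 1 and 0 in the Homeostasis BMI1 lists and 0, 1 and 1 in the Homeostasis H2AK119ub lists, a ratio of 0.894 to the expected number. Its peak of Homeostasis BMI1 replicate 2 and that of H2AK119ub replicate 2 overlapped 56.8 kb from the start, and that of H2AK119ub replicate 3 lay 93 bp from this site without overlapping it. Gli3 (266 kb), which is slightly longer than Hhat, held 0 peaks in all Damage lists, against 0, 0 and 1 in the Homeostasis BMI1 lists and 0, 2 and 0 in the Homeostasis H2AK119ub lists. Its ratio was 0.723, with 0.355 when H2AK119ub replicate 2 was left out and 1.64 with flanks of 50 kb. A site 114 kb from its start (chromosome 13, 15577965 to 15578065) had identical bounds in Homeostasis BMI1 replicate 3 and H2AK119ub replicate 2. The second Gli3 peak, 4.37 kb from the start, was the closest to an annotated start among all 26 peaks and was in Homeostasis H2AK119ub replicate 2 alone. Sufu (91.9 kb), which retains Gli proteins in the cytoplasm, held 1 peak in replicate 2 of each antibody, 64.6 kb from its start, and none in the other lists. Its ratio was 1.36, with 0.847 when BMI1 replicate 2 was left out and 0.724 with flanks of 50 kb. Each Gli or Sufu site was seen in 1 or 2 lists when peaks had to overlap by 1 bp or more. Merging peaks within 200 bp joined the 2 Gli2 sites, which together held peaks of 3 lists.

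Outside Hhat the peaks were few in every list. Of the 8 peaks at the other 9 genes, against 11.96 expected, 6 were in the longest list of each antibody. Those lists held 53.0% of all Homeostasis peaks. Homeostasis H2AK119ub replicate 1, the shortest, and BMI1 replicate 1 had none. The part of list length in these peaks was not tested. By the rule of a peak in 2 or more of 3 Homeostasis lists, 1 of the 10 genes was called for BMI1 (Hhat) and 2 for H2AK119ub (Hhat and Gli2), against 7.34% and 9.63% of all protein-coding genes. Gli2 met the rule through peaks at 2 positions. The H2AK119ub count was 1 without Homeostasis H2AK119ub replicate 2 or without replicate 3, where a peak in both remaining libraries was required. A peak in at least 1 Homeostasis list was present at 4 of 10 genes (19.3% of all protein-coding genes), and in all 6 lists at 1 (2.55%). These backgrounds are averages over genes that are mostly shorter: the median length was 45.5 kb for the Hedgehog genes and 17.2 kb for all. With the share of each gene's own length class (10 classes), the 10 genes would give 1.40 for BMI1, 1.80 for H2AK119ub, 3.21 for any Homeostasis list and 0.522 for all 6. The first 3 counts are close to these values. Hhat, whose recurrence chose it, is included in every count and alone makes up the BMI1 count and the last one. The comparison is therefore a description and not a test.

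BMI1 and H2AK119ub were found together at 6 of the 8 sites, 3 of 3 in Hhat and 3 of 5 elsewhere. The remaining 2 sites were in an H2AK119ub list alone. At Hhat this was fixed in advance, because sites of all 6 lists hold both antibodies and that recurrence chose the gene. Only the 3 of 5 elsewhere can be set beside the share of all sites. Among all 17229 Homeostasis sites both antibodies were present at 43.1%. The 3 shared sites outside Hhat rested on 1 list of each antibody, and all 3 used Homeostasis H2AK119ub replicate 2, without which 3 sites, those of Hhat, held both antibodies.

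After paraquat none of the 10 genes had a peak. Of all protein-coding genes, 62 (0.283%) had a peak in at least 1 Damage list. Even spacing of the Damage peaks gave 0.0753 peaks at the 10 genes in all 6 lists together and 0.0179 at Hhat, so Damage lists of this length could not show whether the sites of Hhat differed from the genome-wide drop in peak number. The nearest Damage peak to Hhat was 31724 kb away, and the nearest to any of the genes was 90.6 kb from Ptch1, in Damage H2AK119ub replicate 2.

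Further genes of the pathway were examined in lists of ligand release, co-receptors, cilium and transduction, control of Gli proteins and response genes, with the acyltransferase family of Hhat as a further list, 82 genes in all. None had a peak in a Damage list. In the Homeostasis lists 24 had a peak, near the 21.8 that the shares of their length classes gave, and 58 had none. A peak in 2 or more of 3 lists was present at 12 genes for BMI1 (14.6%) and 14 for H2AK119ub (17.1%), against 8.63 and 11.3 from the shares of their length classes. By list, the BMI1 and H2AK119ub counts were 2 and 2 for ligand release, against 1.41 and 1.81 from the length classes, and 1 and 1 for co-receptors, against 0.684 and 0.913. They were 2 and 2 for control of Gli proteins, against 2.79 and 3.67, and 3 and 3 for response genes, against 1.16 and 1.48. Of these response genes, Mycn and Vegfa were counted only through sites 4850 bp and 4909 bp outside the gene. Those sites are near the limit of the 5 kb window, so the response gene counts depend on that limit. With the Hedgehog genes included, 63 of the 92 listed genes had 86 start windows, and 0 of them overlapped a Homeostasis peak.

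Of the 9 genes of ligand processing and release, Disp3, a relative of the transporter that frees Hedgehog ligands from the cell, held 1 peak in each of the 6 Homeostasis lists, all on a site of its gene body (chromosome 4, 148241611 to 148241794). Scube2, which carries released ligand, held 1 peak in 5 lists and 2 in Homeostasis H2AK119ub replicate 2, on a site 25.1 kb from its start (chromosome 7, 109840428 to 109840667). Their ratios to expectation were 7.22 and 6.61. Among the 6 co-receptor genes Gas1, which encodes a membrane protein that presents Shh to Ptch1, held 2, 3 and 2 BMI1 peaks and 2, 2 and 2 H2AK119ub peaks. The gene is only 3.13 kb long and all of its peaks were in the flanks. A site 0.629 kb upstream of its start (chromosome 13, 60178102 to 60178227) and a site 4387 bp beyond its far end (60169784 to 60170018) were in all 6 lists. Counted in the gene body alone, Gas1 had no peak.

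Of the 18 response genes, Mycn, a growth-promoting transcription factor, had 1 peak in each of the 6 lists, on a site 4.90 kb upstream of its start (chromosome 12, 12946686 to 12946789). That site lay 4850 bp outside the gene boundary, near the limit of the window. Vegfa, the vascular growth factor, had 1 peak in 5 lists, on a site 4909 bp beyond its 3′ boundary, at the edge of the 5 kb window. Angpt1, a ligand of the endothelial Tie2 receptor, had 2, 2 and 1 BMI1 peaks and 1, 2 and 2 H2AK119ub peaks over 252 kb. Among the 20 genes that control Gli proteins, Btrc, part of the ligase that marks Gli proteins for processing, had a peak in 5 lists at a site 4104 bp outside its boundary. Zic1, a zinc finger factor related to Gli proteins, had 3 peaks, all inside the adjoining Zic4 gene, and Csnk1e, a casein kinase, had 3 peaks on a site 1805 bp outside its boundary. Of 20 genes of the cilium and transduction, 1 met the rule for BMI1 and 3 for H2AK119ub, against 1.61 and 2.21 from the shares of their length classes. The 3 were Arl13b, a ciliary GTPase with peaks in 4 lists on a single site, and Evc and Evc2, which encode partners of Smo at the ciliary base. Evc and Evc2 lie head to head, and the Evc2 peaks, 3675 bp and 3812 bp outside that gene, were Evc peaks counted again.

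Of 9 listed genes of the acyltransferase family of Hhat, the membrane-bound O-acyltransferases, 3 met the rule for each antibody. The shares of all protein-coding genes were 7.34% for BMI1 and 9.63% for H2AK119ub. The shares of the length classes of the 9 genes gave 0.978 and 1.25 members. Hhat itself and Hhatl, which held no peak and was listed under ligand release, are not among the 9. Lpcat3, an enzyme of phospholipid remodelling, had 5 peaks over the 6 lists, Mboat1 had 6 and Mboat2 had 4. The Mboat1 peaks of 4 lists were on a site 0.619 kb upstream of its start. None had a site in all 6 lists, and none had 3 peaks in a list. Over all 82 genes 5 sites were in all 6 lists, in Disp3, Scube2, Gas1 and Mycn. A peak in all 6 lists, on any site, was present at 5 of the 82 genes, against 3.01 from the shares of their length classes.

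The genes whose counts over the 12 lists were closest to Hhat, by the sum of absolute differences, were Phactr2, Gpm6a, Ccbe1, Kctd16 and Dnah7b, each at a summed difference of 3. They were 235 to 307 kb long, with 15 to 19 Homeostasis peaks and no Damage peak, and ratios to expectation of 3.20 to 4.97. Hhat had 18 Homeostasis peaks. Phactr2 and Gpm6a had 2 sites in all 6 lists, and the other 3 genes had 1.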

How the data were processed

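The authors deposited 1 peak list per ChIP library. In the deposited lists the score is 1 throughout, so it ranks nothing and was not used; the authors' step behind it is not stated. Bowtie2, HOMER 4.8 and the build GRCm38 are named in the submitters' processing notes. How peaks were called, and whether Input entered, is not stated there. Groups follow the labelled treatment and antibody.

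Gene boundaries came from a RefSeq table of GRCm38.p6 and start windows from RefSeq, also GRCm38.p6. All 92 listed symbols matched. Expected counts are the peaks of a list on the gene's chromosome times the window length over the length spanned by peaks and genes. Peaks of different lists overlapping by 1 bp or more formed a site. The 143 peaks off the assembled chromosomes were left out of sites and expectations. The genes and lists were chosen with earlier results of these data known, so no test was made. Named genes were the 10 Hedgehog genes, up to 4 per wider list with a peak in 2 or more of 3 Homeostasis lists, taken by ratio, and the 5 genes closest to Hhat. Gli2, Gli3 and Sufu were described in full. The comparison genes with 3 or more peaks per list or 3 sites in all lists were named after their values were seen. So were the genes at the nearest sites and Hhatl. Computation used Python 3.11.15, numpy 2.4.6, pandas 2.3.3 and matplotlib 3.10.9; the counting was checked on simulated lists. Alternatives are given in the closing section.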

Additional observations from a re-analysis of the deposited data

How the results depend on the processing

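Results for the 10 Hedgehog genes were recomputed with other windows, peak centres, other densities and other rules for recurrence and for a site. They were also recomputed without peaks on tRNA and 5S genes, and without each library. Counts of the 82 further genes were not recomputed in this way. Hhat kept 3 peaks per Homeostasis list under every alternative run on it but the 50 kb window (3.33). That window gave 2 genes called for BMI1 and 13 sites. With 1 or more of 3 libraries, 4 genes were called for either antibody, and with 3 of 3, 1 for H2AK119ub. Merging peaks within 200 bp or within 1 kb gave 7 sites in place of 8. Sites counted in 4 or more lists, or in 6, numbered 3 in place of 6. With each centre required within 50 bp of the next, 1 Hhat site was in every list, because neighbouring centres more than 50 bp apart then split.

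Leaving out single libraries gave 1 to 2 genes called for H2AK119ub, 3 to 6 sites in 2 or more lists and 3 to 6 sites with both antibodies. Each was lowest without Homeostasis H2AK119ub replicate 2. The requirement of 2 lists was kept, so without a Homeostasis library a gene needed a peak in both remaining lists of that antibody. Hhat ratios were 5.11 to 6.85 for BMI1 and, for H2AK119ub, 2.81 (without Homeostasis replicate 1) to 6.30 (without replicate 2). A filter on the score was not run, because the score does not vary. No paired analysis was made, because the labels do not say which BMI1 and H2AK119ub libraries came from the same cells. Depth is unknown, and lists of 19 to 68 Damage peaks cannot show an absence at single genes.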
